A study of Mus musculus with 18 samples.

Results

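Trp63 and 6 further genes linked with basal cell identity, Pdpn, Il17b, Id4, Snai2, Cdh3 and Itga6, were followed in the basal and luminal cells of the mouse mammary gland from the embryo to the post-involution gland. The 7 genes were taken from a list of names, chosen with earlier results of these data known. All 7 were found among the 31053 genes of the count tables. RNA of single cells was counted in 17 mammary libraries, each 1 sample. The study's methods state that animals were pooled for most stages, and the labels do not say how many each library held. The C57BL/6 strain provided 6 of them. These were the mammary rudiment of E18.5 embryos, mammary tissue of postnatal day 5, pre-pubertal tissue aged 2.5 weeks, TEBs (terminal end buds) and, separately, ducts from animals aged 5 weeks, and tissue of virgin adults aged 10 weeks. SWISS mice gave 1 adult virgin library of the same age. FVB/NJ mice gave 3 adult virgin libraries (A10, P7 and D12), 2 of pregnancy day 12.5 (H and G), 2 of pregnancy day 18.5 (F4 and B4) and 2 of lactation day 10 (called F11 and D6). A single FVB/NJ library was post-involution, labelled as 3 weeks post birth. The labels name no treatment and no gene deletion for any group. Per the study's methods the E18.5 rudiments were located by an Lgr5-GFP knock-in allele, which marks cells by Lgr5 expression, and TEBs and ducts were dissected from E-cadherin-GFP knock-in mice. Cells negative for blood and endothelial surface markers were sorted on CD24 and CD29, adult animals were not staged for estrus, and the skin library of the series was not used here.

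The mammary epithelium is a bilayer. The basal, or myoepithelial, layer rests on the basement membrane and contracts to expel milk, and the luminal layer holds luminal progenitors (LP), alveolar cells and mature luminal (ML) cells. Trp63 encodes p63, a transcription factor of the p53 family that basal cells of stratified and glandular epithelia depend on. Snai2 encodes SLUG, a zinc finger repressor known from epithelial to mesenchymal transition, and Id4 encodes a helix-loop-helix protein that binds other helix-loop-helix factors and lacks a DNA-binding region of its own. Il17b encodes a secreted ligand of the IL-17 family. Pdpn (podoplanin, a mucin-like surface glycoprotein), Cdh3 (P-cadherin, an adhesion molecule) and Itga6 (integrin alpha-6, the laminin-binding partner of integrin beta-4 in hemidesmosomes) act at the cell surface.

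In the annotation of the mouse genome GRCm38 (GENCODE M21), Trp63 lies at chr16:25683763-25892102 on the plus strand and Snai2 on the same chromosome at chr16:14705852-14709385, also plus. Pdpn lies at chr4:143267431-143299564 on the minus strand, Id4 at chr13:48261228-48266026 on the plus strand, Cdh3 at chr8:106510891-106557297 on the plus strand and Itga6 at chr2:71745616-71858416 on the plus strand. All 7 are protein-coding genes with the same identifiers as in the count tables. The 250 bases before the start of transcription were at hand in RefSeq (GRCm38.p6) for 2 of the 7 genes, Pdpn and Id4. They are shown because they were at hand, and both genes passed the edgeR test in basal cells of lactation. Capitals mark CANNTG, the E-box that SNAIL and helix-loop-helix factors recognise in its various forms, the TATA box letters TATAAA, and the GC box GGGCGG, each searched on both strands.
Pdpn: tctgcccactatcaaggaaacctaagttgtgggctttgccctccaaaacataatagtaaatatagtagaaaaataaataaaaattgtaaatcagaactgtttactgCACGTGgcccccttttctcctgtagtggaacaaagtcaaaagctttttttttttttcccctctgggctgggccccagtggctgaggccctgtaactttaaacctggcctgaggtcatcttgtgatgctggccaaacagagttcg
Id4: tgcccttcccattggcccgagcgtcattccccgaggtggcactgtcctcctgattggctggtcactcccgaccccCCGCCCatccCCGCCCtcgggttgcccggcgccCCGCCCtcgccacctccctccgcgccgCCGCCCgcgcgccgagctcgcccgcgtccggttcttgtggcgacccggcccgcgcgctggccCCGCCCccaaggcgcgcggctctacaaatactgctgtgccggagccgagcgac
The Pdpn stretch, chr4:143299565-143299814 on the minus strand, was 43.2% G and C and held 1 CANNTG and neither of the other motifs. The Id4 stretch, chr13:48260866-48261115 on the plus strand, was 75.6% G and C and held 5 GGGCGG, all as the reverse complement, with no CANNTG and no TATAAA. Among 32851 RefSeq promoters of the same length the median share of G and C was 52.4%, and 66.2% held CANNTG, 12.4% TATAAA and 32.7% GGGCGG. A match of letters is not a measured binding site.

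The libraries held 9920346 to 93234616 unique molecular identifiers (UMIs, each standing for 1 captured RNA molecule), and 123574 of 140187 barcodes were kept as cells, with 2498 to 21609 UMIs in the median cell. Levels are CPM, the UMIs of a gene over all UMIs of the summed cells of a class, per 1000000 UMIs, and all intervals are 95% and cover counting error only. Cells were classed by clusters within each library, from markers that did not include the 7 genes. Barcodes shared by any pair of libraries were at most 2.412% of the smaller. Adult FVB/NJ P7 stood apart as the shallowest library and the only one with cell barcodes of 14 bases, the others having 16. The E18.5 to adult libraries were 1 per stage or tissue, so that no test across these stages was possible. TEBs and ducts were prepared together, as were pre-puberty and the C57BL/6 adult, and between the others stage and preparation cannot be told apart.

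The basal class had its defining markers in each library, with the exception that the embryonic cells carried them only in part. After E18.5 all 10 basal markers (3 keratins, 6 contractile genes and Oxtr) were basal-restricted in each of 16 libraries. This follows in part from their use to name the class. A gene was called basal-restricted where the lower limit of its basal to luminal CPM ratio was above 4. At E18.5 only 2 of the 10 were. The 1030 basal cells of that library were set apart by contractile genes, with Acta2 at 899 CPM and Myl9 at 289 CPM, while Krt14 and Krt17 stood higher in the luminal cells, at 177% and 228% of the basal CPM. Its 1836 luminal cells were 1740 luminal cells not further resolved and 96 ML-like cells. The study saw no evidence of lineage segregation at E18.5 and placed these cells closer to the basal lineage. The basal and luminal classes of this library are thus names for clusters and not equivalents of the later classes. Differences between E18.5 and later libraries include this difference in classes. A further 2557 cells of the E18.5 library stayed unnamed, among them 1996 led by Bex4, Bex1 and Apod and 538 led by Krt15, Cxcl14 and Krt5 in which keratins were the only basal markers raised.

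At E18.5 each of the 7 genes gave counts in both basal and luminal cells. Il17b alone was basal-restricted, 1 of 7 genes, against 0.268% of the 11953 genes measured in that library. Trp63 gave 233 counts in basal and 67 in luminal cells, or 21.5 and 7.04 CPM, a ratio of 3.05 (2.31 to 4.06). Il17b gave 470 and 39 counts, 43.3 and 4.10 CPM, a ratio of 10.6 (7.61 to 15.0). Il17b, the ligand, was the member with the widest ratio, and Trp63 missed the limit of 4. Snai2 gave 363 and 71 counts, 33.4 and 7.47 CPM, a ratio of 4.48 (3.46 to 5.86) whose lower limit fell short of 4. Id4 gave 633 and 267 counts, 58.3 and 28.1 CPM, a ratio of 2.08 (1.80 to 2.41). The 3 surface genes had ratios of 1.87 to 2.08, and Id4 was at the upper end of these. Pdpn gave 1312 and 553 counts, 121 and 58.1 CPM, a ratio of 2.08 (1.88 to 2.30). Cdh3 gave 365 and 163 counts, 33.6 and 17.1 CPM, a ratio of 1.96 (1.63 to 2.37). Itga6 gave 2424 and 1134 counts, 223 and 119 CPM, a ratio of 1.87 (1.74 to 2.01). Each of the 7 intervals lay above 1, so that the basal cells of this library held each member at a level above its luminal cells by more than counting error.

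Shares of positive cells were higher in basal cells for each member. Each cell was thinned to 2000 UMIs, which left out 8 of 1030 basal and 265 of 1836 luminal cells. Trp63 was then seen in 4.01% of basal and 0.955% of luminal cells, against 18.7% and 3.43% before thinning at median depths of 10296 and 4696 UMIs. Il17b was seen in 8.71% and 0.637% (26.5% and 1.85% before thinning), and Snai2 in 7.63% and 1.21% (26.2% and 3.43%). Id4 was seen in 8.71% of basal and 5.09% of luminal cells (37.7% and 11.8%), and Pdpn in 22.4% and 11.2% (64.7% and 22.2%). Cdh3 was seen in 6.07% and 3.50% (28.9% and 8.39%), and Itga6 in 34.3% and 20.4% (83.5% and 40.5%). Fibroblast-like cells of the same library, 473 after thinning with a median of 5288 UMIs before it, showed Trp63 in 0.423%, Il17b in 0.846% and Cdh3 in 1.06% of cells. The luminal share of Il17b was not above the fibroblast level. For Trp63 the intervals of the 2 shares overlapped (0.535% to 1.57% in luminal, 0.0512% to 1.52% in fibroblast-like cells), so that luminal Il17b and Trp63 could not be told from background. The luminal share of Cdh3 (2.65% to 4.53%) lay above that of the fibroblast-like cells (0.344% to 2.45%). Id4 was in 10.1% and Itga6 in 8.25% of these fibroblast-like cells. For Id4 this was above the 5.09% of luminal and the 8.71% of basal cells, so that fibroblast-like cells gave no background for it. For Pdpn and Snai2, which fibroblasts are known to express, no cell type of this library served as background.

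By postnatal day 5 all 7 genes were basal-restricted, against 4.81% of 12065 genes. Since the members were chosen with earlier results of these data known, such contrasts with all genes are descriptions in every library. Trp63 stood at 78.6 CPM in 431 basal cells and 5.38 CPM in 824 luminal cells (291 and 54 counts), a ratio of 14.6 (10.9 to 19.9). Il17b stood at 1208 and 7.18 CPM (4470 and 72 counts), a ratio of 168 (133 to 215). The basal level of Il17b was 43.3 CPM in the E18.5 library, while its luminal level there was 4.10 CPM. Snai2 stood at 102 and 2.59 CPM (378 and 26 counts), a ratio of 39.4 (26.5 to 61.1). Id4 stood at 223 and 8.77 CPM (827 and 88 counts), a ratio of 25.5 (20.4 to 32.1). Pdpn stood at 186 and 4.29 CPM (687 and 43 counts), a ratio of 43.3 (31.8 to 60.4). For Pdpn the 2 libraries differed more in luminal than in basal cells, with 58.1 and 4.29 CPM in luminal and 121 and 186 CPM in basal cells. Cdh3 stood at 115 and 5.58 CPM (425 and 56 counts), a ratio of 20.6 (15.5 to 27.7). Itga6 stood at 640.4 and 135 CPM (2370 and 1353 counts), a ratio of 4.75 (4.44 to 5.08), beside a luminal level of 119 CPM at E18.5.

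**Figure D1:**
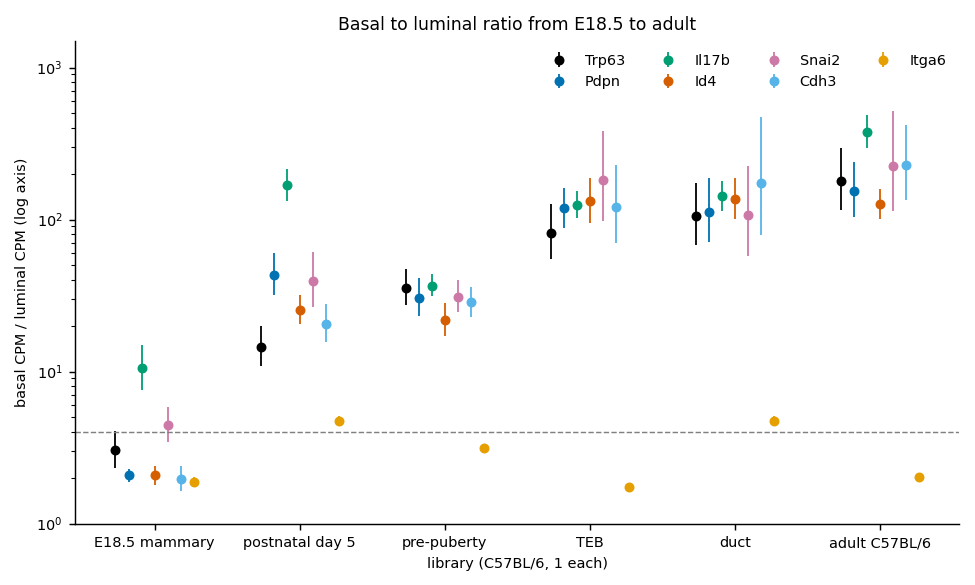
Basal to luminal ratio of CPM (vertical log axis) in the 6 C57BL/6 libraries from E18.5 to the adult (horizontal axis, 1 library each), with 95% counting intervals as bars. The dashed line marks 4. At E18.5 only Il17b has its whole interval above the line. From postnatal day 5 every gene but Itga6 lies far above it, and Itga6 stays between 1.73 and 4.75.

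Trp63 was seen in 14.1% of 418 basal and 0.613% of 816 luminal cells, Snai2 in 18.2% and 0.245%, and Id4 in 31.3% and 1.84%. Il17b was seen in 76.8% and 0.858%, Pdpn in 28.9% and 0.980%, and Cdh3 in 24.4% and 0.490%. Itga6 was seen in 68.4% of basal and 21.2% of luminal cells. Before thinning, at median depths of 7559 UMIs in basal and 9806 UMIs in luminal cells, Trp63 was in 43.2% and 3.03% and Itga6 in 94.4% and 64.9%. In 299 thinned fibroblast-like cells (median 4054 UMIs) Trp63 and Il17b were seen in none, which allows up to 1.23% by the exact interval, and Cdh3 in 0.669%. The luminal share of Cdh3 was not above the fibroblast level. For Trp63 and Il17b the number of fibroblast-like cells was too small to tell the luminal shares from background.

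Trp63 was also found outside the basal class in the 2 youngest libraries. At E18.5 it reached 119 CPM in the Krt15 and Cxcl14 cluster and 88.8 CPM in 208 epidermal-like cells, against 21.5 CPM in the basal class. At postnatal day 5 it reached 126 CPM in 311 epidermal-like cells. Unnamed clusters of that library held 235 CPM (855 cells led by Tgfbi and Krt5), 240.0 CPM (587 cells led by Lhx2 and Tbx1), 161 CPM (168 cells led by Krt25 and Krt28) and 270.1 CPM (134 cells led by Gria2 and Isl1). Each of these was above the 78.6 CPM of basal cells. Snai2 and Cdh3 were also present there, at 81.4 and 63.7 CPM in the Tgfbi and Krt5 cluster, and Itga6 at 456 CPM. Cdh3 reached 94.0 CPM in the Lhx2 and Tbx1 cluster and 117 CPM in the Krt25 and Krt28 cluster, beside 115 CPM in basal cells. In the Gria2 and Isl1 cluster Cdh3 was at 40.5 CPM. Il17b kept to the basal class, with 3.48 CPM in the Krt15 and Cxcl14 cluster at E18.5 and 1.77 CPM in the Tgfbi and Krt5 cluster at postnatal day 5. Pdpn in these 2 clusters stood at 48.9 and 12.5 CPM, below its basal level of the same library. In the 1996 Bex4 and Bex1 cells of E18.5, Pdpn (88.3 CPM), Itga6 (139 CPM) and Id4 (46.9 CPM) lay between the luminal and the basal values, and Trp63 was at 7.64 CPM. The study described an E18.5 cluster strong in Krt5, Krt14, Krt17 and Cxcl14 as basal-like. It also described basal-like clusters beside a basal cluster at postnatal day 5. The study further considered some clusters of these 2 libraries to be contaminating skin or stromal cells. Whether the unnamed clusters here match the basal-like or the contaminating clusters of the study was not tested. Whether the cells outside the basal class gave any of the luminal signal of the same libraries was not tested either.

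**Figure D2:**
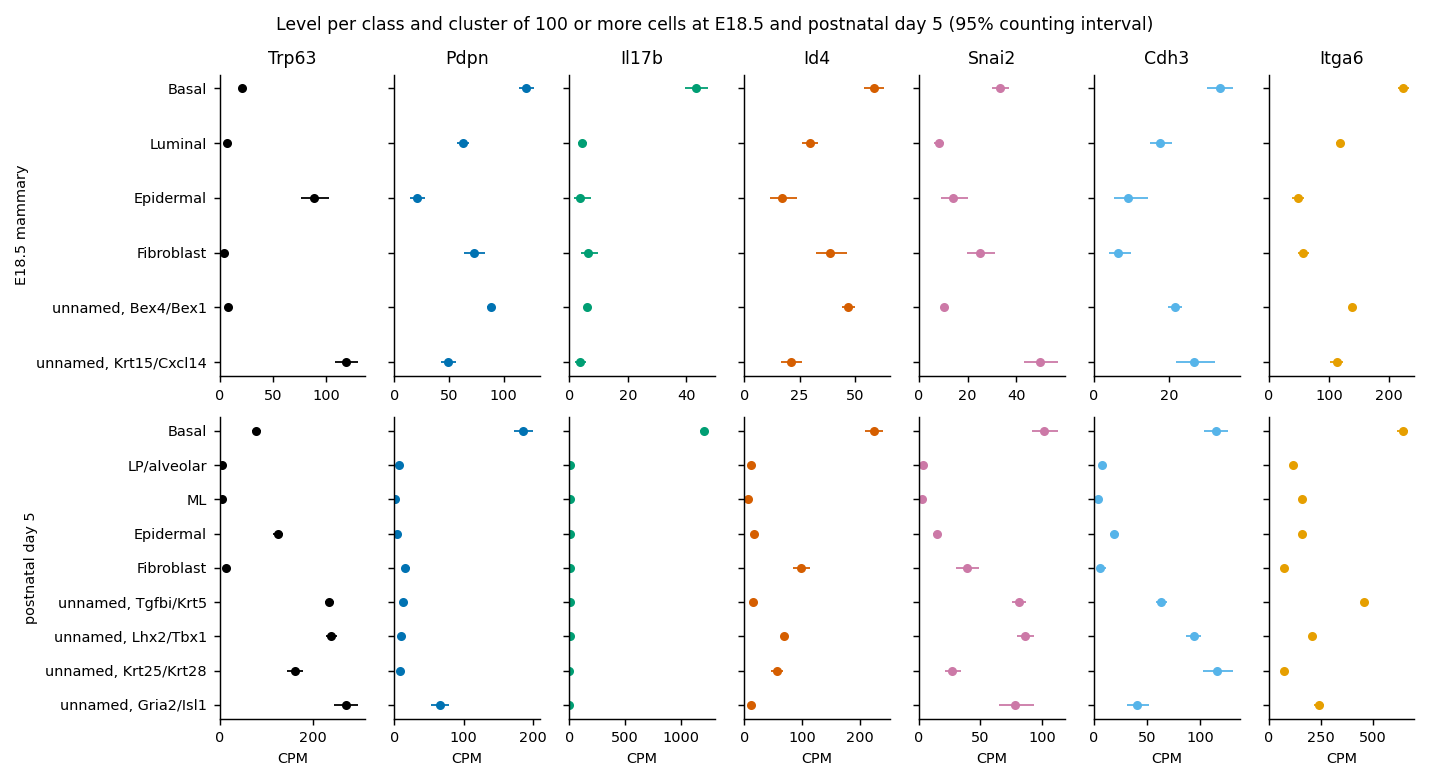
Level in CPM (horizontal axes, a separate scale for each gene) in the classes and unnamed clusters of 100 or more cells at E18.5 (upper row) and postnatal day 5 (lower row), with 95% counting intervals. Schwann-like cells, 234 at E18.5 and 104 at postnatal day 5, were not measured and are not shown. Among the groups shown, Il17b, Pdpn, Id4, Cdh3 and Itga6 are highest by CPM in the basal class at E18.5. After thinning, however, Id4 was seen in a higher share of fibroblast-like than of basal cells. Trp63 and Snai2 are highest in the Krt15 and Cxcl14 cluster, at 119 and 49.9 CPM.

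Counting the Krt15 and Cxcl14 cluster as basal, an alternative chosen after seeing the data, brought Trp63 at E18.5 to a ratio of 6.80 (5.29 to 8.87) and 2 of 7 genes to basal-restricted. The share over all genes was not computed for this alternative. Il17b was then at 7.93 (5.72 to 11.3) and Snai2 at 5.08 (3.96 to 6.59). The other 4 stayed between 1.62 and 1.85. Under a gate on keratin UMIs in place of clusters, none of the 7 was basal-restricted at E18.5, and 80.8% of the gated epithelial cells fell between the basal and the luminal gate.

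From pre-puberty on, 6 of the 7 genes were basal-restricted in each of the 15 libraries, and Itga6 in 4 of them. The share of all measured genes so called was 6.09% at pre-puberty, 6.86% in TEBs, 7.68% in ducts, 8.4% in the C57BL/6 adult and 7.39% in the SWISS adult. In the FVB/NJ adults it was 8.46% in A10, 6% in P7 and 5.79% in D12, and post-involution it was 7.14%. In pregnancy it was 10.9% in H, 10.7% in G, 15.3% in F4 and 17.3% in B4, and in lactation 4.66% in F11 and 10.9% in D6. Over all 17 libraries, 102 of the 119 pairs of a gene and a library were basal-restricted. Trp63, Pdpn, Id4, Snai2 and Cdh3 were so in 16 libraries each, Il17b in 17 and Itga6 in 5. With a limit of 8 the counts were 16 for each of the first 6 genes and 0 for Itga6. With the keratin gate in place of clusters 97 of 119 pairs were restricted, and 4 of 7 genes in lactation F11. Pdpn was then restricted in 14 libraries, Id4 in 15, Il17b in 16 and Itga6 in 4. Without high Scrublet scores, which mark likely doublets, Pdpn was restricted in 15. Shares over all genes were not computed for these settings.

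Trp63 in basal cells of the 16 libraries after E18.5 ranged from 62.8 to 163 CPM with a median of 88.1, and in luminal cells from 0.389 to 6.32 CPM with a median of 2.07. It was 148 CPM at pre-puberty, 66.8 in TEBs, 127 in ducts, 86.6 in the C57BL/6 and 62.8 in the SWISS adult. The highest basal level was in B4 at pregnancy day 18.5. The highest luminal level, 6.32 CPM, was in adult D12, the library in which the luminal CPM of contractile genes, as a percentage of the basal CPM, had the highest median (7.59%) of these 16 libraries.

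Il17b, encoded on chromosome 18, ran in basal cells from 256 CPM in lactation D6 to 1615 CPM in pregnancy day 18.5 B4, with a median of 623, and the thinned share of positive basal cells from 33.2% to 89.5%. Its luminal level ran from 0.259 to 36.8 CPM. Its luminal shares after thinning reached 6.53% in the 16 libraries after E18.5, the highest of the 6 genes other than Itga6 in these libraries.

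Id4 ranged from 16.8 to 402 CPM in basal cells (median 220.5) and Pdpn from 15.0 to 219.8 CPM (median 125), and for both the lowest values were the 2 lactation libraries. Snai2 ranged from 25.1 to 161 CPM (median 68.6) and Cdh3 from 31.2 to 166 CPM (median 65.2). For both genes pre-puberty was the highest and adult P7 the lowest.

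Shares after thinning were apart in the adult as well. In the C57BL/6 adult, with 2996 basal and 6829 luminal cells after thinning, Trp63 was seen in 16.3% and 0.132%, Snai2 in 9.05% and 0.0293%, and Id4 in 36.0% and 0.337%. Il17b was seen in 51.7% and 0.395%, Pdpn in 16.2% and 0.132%, and Cdh3 in 16.3% and 0.0732%. The fibroblast-like cells of this library showed Trp63 in 0.489%, Il17b in 1.47% and Cdh3 in 0.326%, so that these 3 luminal shares could not be told from background. They showed Id4 in 1.47%, and since such cells held Id4 at E18.5 they are not taken as a background for it. Pdpn was seen in none of 343 immune-like cells of lactation D6, and Snai2 in 0.583%. Of the 119 pairs of a gene and a library, 118 had a basal interval wholly above the luminal interval, the exception being Itga6 in lactation F11 with 20.5% (16.1% to 25.5%) and 16.0% (13.9% to 18.3%). Without thinning 115 pairs were apart, and with the keratin gate 112. How many of all genes were apart in this way was not computed.

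**Figure D3:**
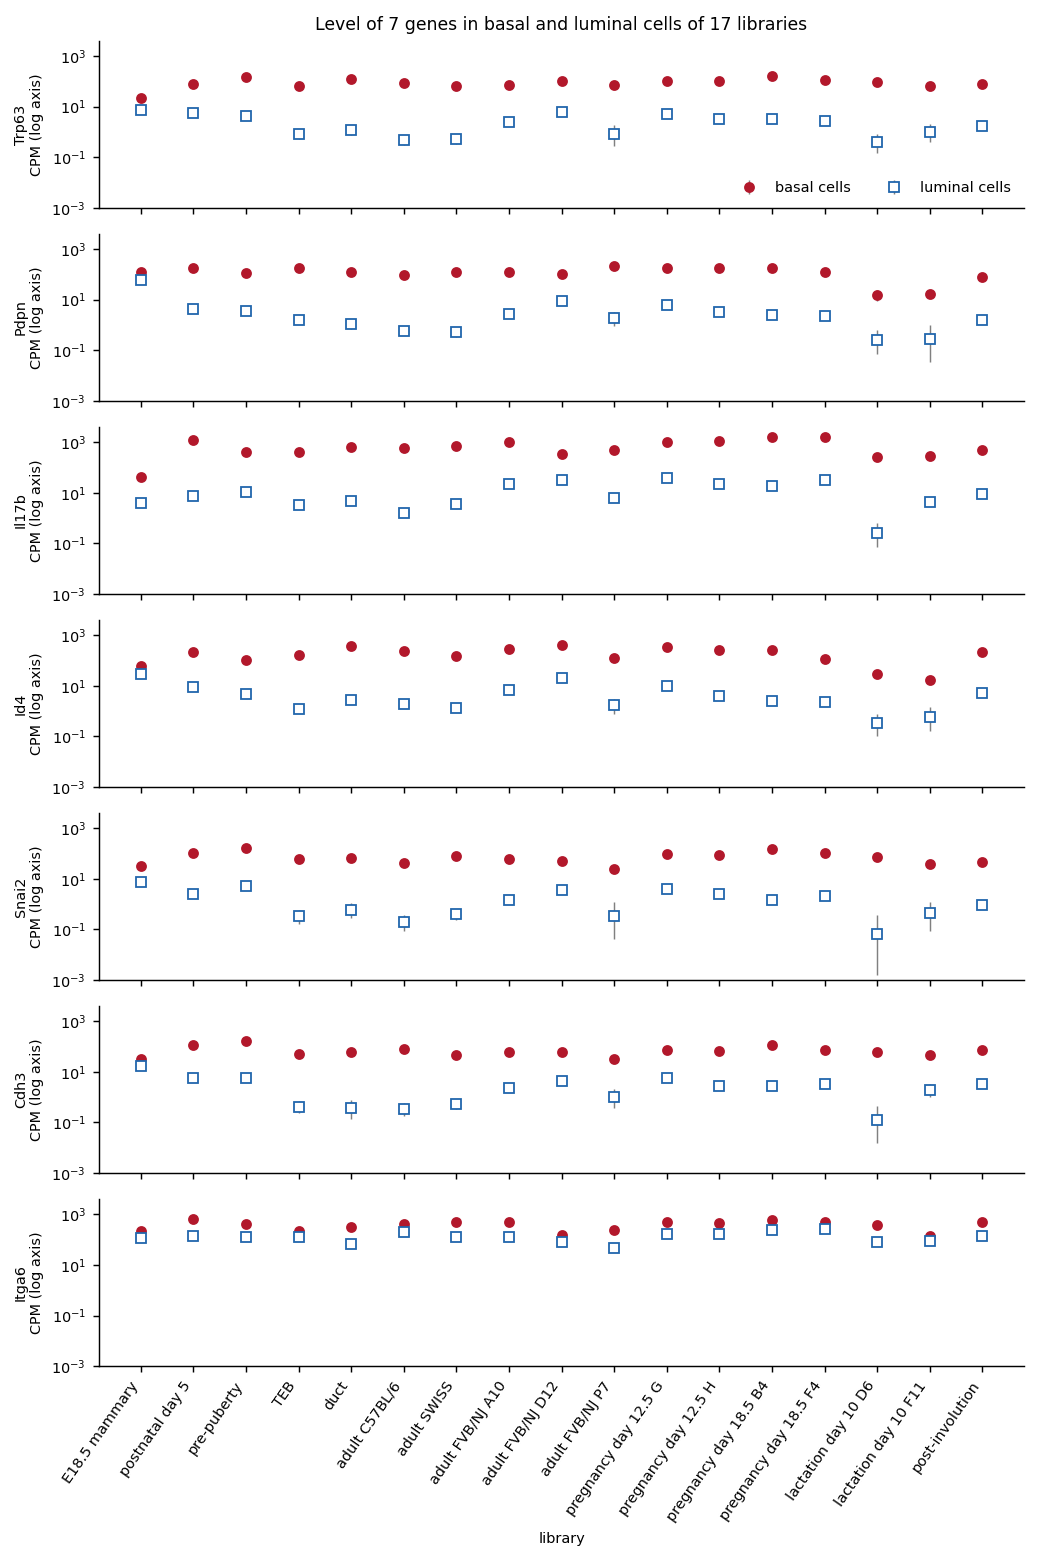
Level in CPM (vertical log axes, 1 panel per gene) in basal cells (filled) and luminal cells (open) of 17 libraries (horizontal axis), with 95% counting intervals. The 2 series nearly meet at E18.5 for Pdpn, Id4 and Cdh3 and are far apart in every later library, except for Itga6, whose luminal cells hold 46.2 to 269.7 CPM after E18.5.

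Itga6 kept a luminal level throughout. Its basal CPM ranged from 141 to 640.4 (median 441) after E18.5 and its luminal CPM from 46.2 to 269.7 (median 127). The ratio ran from 1.64 (1.42 to 1.88) in lactation F11 to 5.18 (4.49 to 5.99) in adult P7, and the gene passed the limit of 4 at postnatal day 5, in ducts, in adult A10 and P7, and in lactation D6. Against LP/alveolar cells alone it passed in 7 libraries, and against ML cells alone in 3. With the milk genes removed Itga6 passed in 4 libraries, the call in lactation D6 being lost. Milk transcripts took 33.7% of basal and 68.9% of LP/alveolar UMIs in D6. In TEBs the ratio was 1.73 (1.65 to 1.82) and in ducts of the same age 4.72 (4.41 to 5.06). Basal Itga6 was 219 CPM in TEBs and 308 CPM in ducts, and luminal Itga6 was 126 and 65.2 CPM. ML cells were 995 of 1374 luminal cells in TEBs and 466 of 948 in ducts, and the effect of this mix was not tested. The thinned luminal share ran from 7.64% to 40.3% over the 16 later libraries. Fibroblast-like cells of the adult C57BL/6 library showed it in 6.20% of cells against 29.1% of luminal cells, at median depths of 4597 and 5473 UMIs.

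The luminal remainder of the other genes was set beside that of contractile genes, which are known for the basal layer. The contractile genes were among the markers that named the basal class, and unlike the 7 genes they were not withheld from clustering. Their low luminal percentage is therefore partly set by the way cells were classed, and the contrast is a description. Each library's luminal CPM was taken as a percentage of its basal CPM. At E18.5 the median over 6 contractile genes was 17.5%, against 32.8% for Trp63, 48.1% for Pdpn, 9.47% for Il17b, 48.1% for Id4, 22.3% for Snai2, 51.0% for Cdh3 and 53.4% for Itga6. Thus 5 genes were above the whole range of the contractile genes, 7.31% to 24.6%, and Il17b and Snai2 were inside it. At postnatal day 5 the contractile median was 0.265%, and Il17b stood at 0.594%, Pdpn at 2.31%, Snai2 at 2.54%, Id4 at 3.93%, Cdh3 at 4.86% and Trp63 at 6.85%. The 3 keratins of the marker list stood at 15.1% to 23.2% in that library. Values of the unnamed clusters that hold Trp63 and Cdh3 are given above, and their part in these percentages was not tested.

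In the 15 libraries from pre-puberty on, Trp63 lay inside the range of the 10 basal markers in 15, Pdpn, Il17b and Snai2 in 13 each, Id4 and Cdh3 in 12 each, and Itga6 in 0. The median luminal percentage was 1.93% for Trp63, 1.73% for Pdpn, 1.52% for Il17b, 1.54% for Id4, 1.33% for Snai2 and 3.50% for Cdh3. Cdh3 was at 2.05 times the contractile median of its library in the median library, the other 5 at 0.997 to 1.38 times. Itga6 was at 34.8%, or 26.8 times. In adult D12 the contractile median itself was 7.59%, which goes with its high luminal values of Trp63 (6.41%), Pdpn (8.28%) and Il17b (9.09%).

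**Figure D4:**
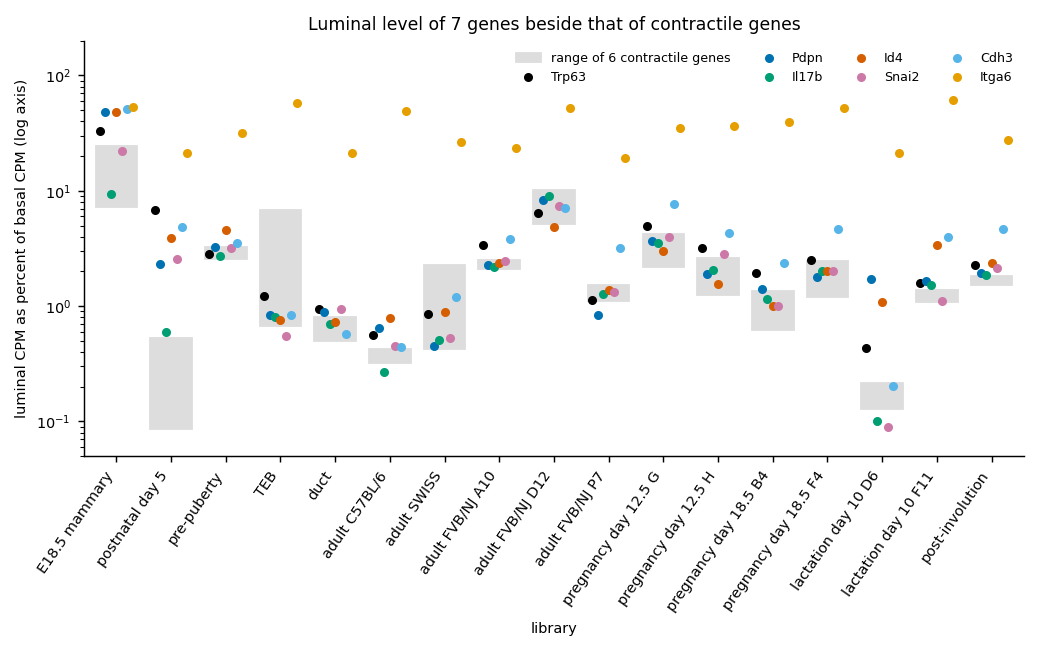
Luminal CPM as a percentage of basal CPM (vertical log axis) for the 7 genes in each of 17 libraries (horizontal axis), with the range of 6 contractile genes as a grey band. Trp63, Pdpn, Id4, Cdh3 and Itga6 lie above the band at E18.5, all 7 genes lie above it at postnatal day 5, where its median is 0.265%, and Itga6 lies above it in all 17 libraries.

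Against ML cells alone 93 of 119 pairs were basal-restricted, and against LP/alveolar cells alone 103 of 112, the E18.5 library having no LP/alveolar class. Shares over all genes were not computed for these partners. Against ML cells alone 3 of 7 members were restricted at E18.5 and in lactation F11, and 4 of 7 in G and D6. In ML cells of pregnancy, of which there were 180 to 389 a library, Trp63 stood at 10.9 CPM in H, 22.4 in G, 14.3 in F4 and 20.4 in B4, above the LP/alveolar values of 2.26 to 4.13 CPM in the same libraries. Cdh3 stood at 19.1, 30.6, 12.3 and 19.6 CPM in these ML cells, above 2.14 to 4.48 CPM in LP/alveolar cells. These ML values were not set beside a background or the contractile genes. Some mural, immune and erythroid markers were also raised in these ML clusters. In lactation the secretory cells mostly fell in clusters that stayed unnamed, and Trp63 in the 3 largest of these in F11 and the 2 in D6 was at 0 to 0.372 CPM.

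The FVB/NJ libraries had replicates and were tested across adult, pregnancy and lactation with edgeR's quasi-likelihood fit on counts summed over basal cells. Libraries are separate samples by their labels, and the p-values measure the spread between them. Levels below are CPM after TMM scaling, which corrects for differences in composition, and all 3 comparisons share the adult libraries. In basal cells 0 of 7 genes passed an adjusted p of 0.05 at pregnancy day 12.5, where 156 of 13213 genes (1.18%) did, 0.56% higher and 0.621% lower. Unadjusted, 1947 genes had a p under 0.05, Snai2 the 1 member among them, and DESeq2 called 568 genes and 0 members. At pregnancy day 18.5 it was again 0 of 7, where 452 genes (3.42%) passed, 2.27% higher and 1.15% lower. Unadjusted, 2281 genes had a p under 0.05, with 3 members (Snai2, Il17b and Trp63) among them. DESeq2 called 853 genes at this stage, Snai2 the 1 member among them. At lactation day 10 it was 2 of 7, Pdpn and Id4, both lower, where 542 genes (4.1%) passed, 2.91% of all tested higher and 1.19% lower.

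Pdpn stood at 120.0, 170.2 and 94.0 CPM in adult A10, P7 and D12, at 165 and 163 in H and G, at 113 and 143 in F4 and B4, and at 31.9 and 18.5 in lactation F11 and D6. The lactation libraries lay below all 7 others and did not overlap the adults. Pdpn fell by 2.33 on the log2 scale (SE 0.43, edgeR adjusted p = 0.0113) from 38 and 16 raw counts. The call was lost without F11 or without D6, and held with the keratin gate (edgeR adjusted p = 0.0299). Each of these 2 losses left lactation with 1 library, so that the spread came from the other groups. Over the fits that left out 1 library the log2 difference ran from -2.78 to -2.01.

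Id4 stood at 273, 93.0 and 350.2 CPM in adult A10, P7 and D12, at 243 and 311 in H and G, at 104 and 217 in F4 and B4, and at 31.0 and 37.0 in lactation F11 and D6. The adults spread widely, and again both lactation libraries lay below all others. Id4 fell by 2.82 on the log2 scale (SE 0.62, edgeR adjusted p = 0.0281) from 37 and 32 raw counts. The call was lost without F11 or D6, which each left lactation with 1 library. It was also lost without D12 (edgeR adjusted p = 0.0554) and with the keratin gate (0.0816). Over the fits that left out 1 library the log2 difference ran from -3.20 to -2.42. Its relatives Id1 and Id3, which also bind helix-loop-helix factors, passed in pregnancy. Id1 fell by 3.45 at pregnancy day 12.5 (adjusted p = 0.00912) and by 3.31 at day 18.5 (0.00147), and Id3 fell by 3.31 (0.0307) and by 2.99 (0.0193), all in edgeR. The day 12.5 call of Id1 was lost without H or G (highest adjusted p = 0.149) and that of Id3 in 7 of 9 fits that left out 1 library, holding without A10 or P7 (highest 0.456). At day 18.5 the call of Id3 was lost without F4, B4 or F11 (highest 0.27), and that of Id1 was lost in none.

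The basal class of D6 held 370 cells. A further 313 cells of D6 formed a cluster led by hemoglobin genes, which took 4.86% of its UMIs against 0.104% in the basal class, and all 10 basal markers were raised in it, as were 5 endothelial and 5 immune markers. By its leading genes it was named Erythroid-like and left out of the basal class. It gave 6 Pdpn counts (4.06 CPM) and 25 Id4 counts (16.9 CPM), beside 15.0 and 29.9 CPM in the basal class of the same library. Counted as basal, an alternative chosen after seeing the data, these cells gave a Pdpn that fell by 2.75 in lactation (edgeR adjusted p = 0.0203) and an Id4 that fell by 3.18 (0.0162), and both calls held. In the same fit the calls of Id1 and Id3 in pregnancy were lost (adjusted p = 0.107 to 0.131). The count over all genes became 43 at pregnancy day 12.5, 287 at day 18.5 and 777 in lactation.

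Trp63 stood at 69.8, 57.7 and 85.9 CPM in the adults A10, P7 and D12, at 96.0 and 94.1 at pregnancy day 12.5, at 97.4 and 137 at day 18.5 and at 117 and 111 in lactation. On this scale every later library lay above the 3 adults, and no comparison passed (log2 differences 0.42, 0.72 and 0.68, edgeR adjusted p = 0.606, 0.285 and 0.285). How many of all genes tested lay apart from the adults in this way was not computed, here or for the genes below. Snai2 stood at 57.8, 19.4 and 43.3 CPM in the adults, at 79.2 and 91.3, at 93.5 and 123, and at 72.1 and 90.2 in the same order. It too lay above the adults in every later library on this scale, with log2 differences of 1.07, 1.42 and 1.001 and edgeR adjusted p of 0.255, 0.103 and 0.229. Without the low-count filter the day 18.5 value passed (adjusted p = 0.0151), as it did in DESeq2 (0.0304).

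Cdh3 stood at 60.0, 24.1 and 52.8 CPM in the adults, 62.5 and 69.3, 67.1 and 100.1, and 87.2 and 78.7 in the later stages, also above the adults throughout on this scale, with edgeR adjusted p of 0.599, 0.295 and 0.275. Il17b stood at 951, 388 and 291 CPM in the adults, 1029 and 998 at pregnancy day 12.5, 1380 and 1351 at day 18.5, and 541 and 317 in lactation. The 4 pregnancy libraries lay above the adults, and lactation overlapped them, with edgeR adjusted p of 0.503, 0.232 and 0.777. Itga6 stood at 495, 185 and 134 CPM in the adults and at 261 to 502 later, inside the spread of the adults but for B4, with edgeR adjusted p of 0.59, 0.494 and 0.732. The median log2 difference of the 7 genes was 0.52, 0.83 and 0.39 in the 3 comparisons, beside -0.07, -0.08 and -0.16 over all genes tested. Without TMM scaling it was 0.44, 0.89 and -0.25, so that in lactation its sign depends on the scaling.

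**Figure D5:**
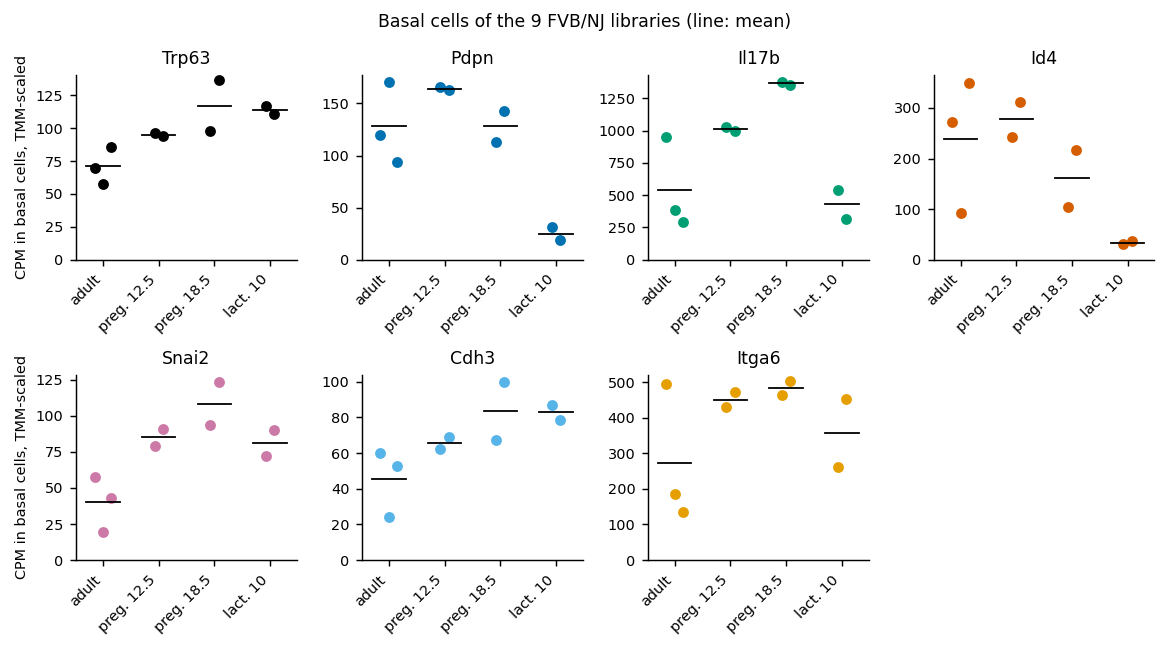
TMM-scaled CPM in basal cells (vertical axes from 0, 1 panel per gene) of the 9 FVB/NJ libraries by stage (horizontal axis), 1 point per library with the mean as a line. Pdpn and Id4 are lowest in both lactation libraries. Trp63, Snai2 and Cdh3 are above all 3 adults in each of the 6 later libraries on this scale. Without TMM scaling this does not hold for F11 or, for Trp63, for D6. How many of all genes tested lie above the adults in this way was not computed.

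Milk transcripts took 49.3% of basal UMIs in lactation F11 and 33.7% in D6, against at most 3.56% in the other 7 libraries. Without TMM scaling, Pdpn and Id4 fell further in lactation (by 3.21 and by 3.54), Trp63 turned to -0.10 and Itga6 to -0.25, Cdh3 was at 0.10 and Snai2 at 0.30, and 2150 of 2459 calls over all genes were lower, where TMM scaling gave 385 higher and 157 lower. The median of all genes moved by -0.97 in lactation without TMM scaling, against -0.16 with it. The unscaled basal CPM of F11 was 63.1 for Trp63, below all 3 adults, 39.1 for Snai2 and 47.2 for Cdh3, both below A10 and D12. With the milk genes removed before the fit, Pdpn fell by 2.36 (edgeR adjusted p = 0.0119) and Id4 by 2.81 (0.025), and 529 genes were called.

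The gap between basal and LP/alveolar cells was tested as the interaction of class and stage, with the library as a block. The LP/alveolar class was not the same part of the luminal cells in each library. In B4 it held 1478 cells, and 934 luminal cells not further resolved were left out. In lactation F11 and D6 it held 933 and 936 cells, while 2849 and 2839 cells stayed unnamed, secretory cells among them. The effect of leaving out the unnamed cells was not tested. At pregnancy day 12.5 none of the 7 genes passed, where 1277 of 14232 (8.97%) did, 5.34% with a gap shifted up, toward basal cells, and 3.63% down. Unadjusted, Id4 and Itga6 had a p under 0.05, 2 of 7, among 3408 genes in all, and DESeq2 called 0 of the 7 in this comparison. At pregnancy day 18.5 Itga6 passed, 1 of 7, where 3850 genes (27.1%) did, 13.4% up and 13.7% down. At lactation day 10 Itga6, Trp63 and Snai2 passed, 3 of 7, where 1221 genes (8.58%) did, 4.2% up and 4.38% down.

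For Itga6 the gap narrowed. Its TMM-scaled CPM in LP/alveolar cells was 112, 28.9 and 42.6 in adult A10, P7 and D12, 371 and 384 at pregnancy day 18.5 in F4 and B4, and 182 and 227 in lactation F11 and D6. All 4 later libraries lay above the adults. The gap fell by 1.70 on the log2 scale at day 18.5 (SE 0.28, edgeR adjusted p = 0.00107) and by 1.36 in lactation (SE 0.28, adjusted p = 0.0132). Without TMM scaling neither passed (fell by 0.80, adjusted p = 0.162, and by 0.53, adjusted p = 0.473), and calls over all genes turned from 1902 higher and 1948 lower to 4817 and 430 at day 18.5, and from 598 and 623 to 1825 and 117 in lactation. The unscaled LP/alveolar CPM of Itga6 were 119, 41.1 and 55.5 in the adults, 265 and 213 at day 18.5 and 85.3 and 76.7 in lactation. The day 18.5 call held with each library left out (highest adjusted p = 0.0133), while that of lactation was lost without F11 (0.0741). With the keratin gate the day 18.5 call held (0.0139) and the lactation call was lost (0.135).

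For Trp63 and Snai2 the gap widened in lactation. Trp63 gave 63, 3 and 51 counts in LP/alveolar cells of adult A10, P7 and D12 and 6 and 4 in lactation F11 and D6. Its gap rose by 2.28 (SE 0.54, edgeR adjusted p = 0.0236), and the call was lost without A10 (0.056) or D6 (0.272). Snai2 gave 38, 0 and 17 counts in the adults and 2 and 0 in lactation, at or under the floor of 3 counts, so its fitted rise of 3.67 (SE 0.89, edgeR adjusted p = 0.0266) is not a measured size, and its call was lost without A10 (0.0691) or D6 (0.318) and in DESeq2 (0.0596). In the same fit the gaps of the 6 contractile genes widened by 2.08 to 2.56 (median 2.43), 4 of the 6 passing. With the keratin gate the gaps of Trp63 and Snai2 were 1.43 (adjusted p = 0.268) and 2.50 (0.189). With all luminal cells as the partner they were 1.51 (adjusted p = 0.186) and 2.77 (0.0992). With the hemoglobin-led cluster of D6 counted as basal, Trp63 was at 1.80 and its call was lost (edgeR adjusted p = 0.0528), while those of Snai2 (0.0452) and of Itga6 in lactation (0.0125) held.

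Of the p53 family and its regulators, Trp73, the closest relative of Trp63, was restricted in 10 of the 12 libraries where it reached 20 counts, at a mean of 3.60 CPM in adult FVB/NJ basal cells, while Trp53 was so in 1 of 17 and Mdm2 in 2. In basal cells 1 of the 4 genes passed, Ppp1r13l, an inhibitor of p53 proteins, which fell by 1.87 at pregnancy day 18.5 (edgeR adjusted p = 0.0353), a call lost without H, G, F4, B4 or D12 (highest 0.321) and with the hemoglobin-led cluster of D6 counted as basal (0.0768). Of 9 known p63 targets, Jag2, a Notch ligand, was restricted in 16 of 17 libraries, Igfbp3 in 15, Perp, a desmosomal protein, in 14, and Fras1 in 9 of the 12 where it was measured. Sfn was so in 6 of 17, Fgfr2, a growth factor receptor, in 5, and Cdkn1a, the cell cycle inhibitor p21, in 3. Cldn1, a tight junction protein, was so in 0 and averaged 1.07 CPM in basal and 16.7 CPM in luminal cells of the FVB/NJ adults. Igfbp3, which binds insulin-like growth factors, was the only one of the 9 to pass in basal cells, and fell by 2.35 at pregnancy day 18.5 (0.0179) and by 3.93 in lactation (0.00125). Its day 18.5 call was lost without H, G, F4 or B4 (highest adjusted p = 0.251) and with that cluster added (0.0939). At E18.5 the basal to luminal ratio of Igfbp3 was 0.906 (0.775 to 1.06).

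Itgb4, whose product pairs with that of Itga6, was restricted in 0 of 17 libraries, at 20.3 CPM in basal and 14.4 CPM in luminal cells as means of the adult FVB/NJ libraries. Col17a1 and Lama3, a hemidesmosome collagen and a laminin chain, were restricted in 16 each, and Lamb3 in 9. Dst was the only gene of 8 in this list to pass in basal cells, and rose by 1.69 in lactation (edgeR adjusted p = 0.0379), a call that held in 2 of 9 fits that left out 1 library, without A10 or P7 (highest 0.208), and was lost with the hemoglobin-led cluster of D6 added (0.0582). Of 9 other integrins, Itga1, a collagen receptor chain, was restricted in 15 of 16 libraries and Itga9 in 14 of 15, whereas Itgb1 was so in 3 of 17. Itga1 passed at all 3 stages and rose by 1.65, 3.15 and 2.73 (edgeR adjusted p = 0.0333, 0.000881 and 0.000691). Its day 12.5 call was lost in 7 of the 9 such fits, holding without A10 or P7 (highest 0.492). It was also lost with that cluster added (0.0595), and the 2 later calls were lost in none of these.

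Ctnna1, Ctnnb1, Jup and Ctnnd1, the catenins that bind cadherins, were restricted in 0 of 17 libraries. Cdh1 and Cdh2 fall outside the rule for naming genes and were chosen after their values were seen. Cdh1, E-cadherin, stood higher in luminal cells in 16 of 17 libraries, with a ratio of 0.343 at E18.5, and Cdh2, N-cadherin, was restricted in 15 of 16. None of the 6 cadherins and catenins passed in basal cells. Among the SNAIL, TWIST and ZEB factors with Vim, Snai1 was restricted in 0 of 14 libraries and reached 3.53 CPM in adult FVB/NJ basal cells, and Vim was restricted in 16 of 17. At E18.5 Vim was at 307 CPM in basal and 354 CPM in luminal cells. None of the 5 tested in that list passed in basal cells. Of the 6 Id family members and E proteins, Id1 and Id2 were restricted in 0 of 17 libraries and Id3 in 1, unlike Id4.

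Receptors for Il17b were low. Il17rb, its main receptor chain, averaged 2.07 CPM in adult FVB/NJ basal and 1.09 CPM in luminal cells. Il17re, a receptor chain for another ligand, averaged 10.7 and 55.4 CPM, and Il17ra and Il17rc were restricted in 0 of 17. None of the 6 tested genes of this list passed in basal cells. Of podoplanin's partners, Cd9 and Ezr were higher in luminal than in basal cells in the adult means (1490.0 CPM in basal and 2493 CPM in luminal cells for Cd9, 186 and 418 CPM for Ezr), and Msn was restricted in 10 of 17. None of the 5 tested passed in basal cells.

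Across 53 sums of a library and an epithelial class, 17 of them basal, and 7569 genes, the profile most like that of Trp63 was Cdh3 (Pearson r = 0.969 of log2(CPM + 5)), followed by Pltp, Rnase4, Snai2 and Tgfb1i1 (0.966 to 0.964). For Snai2 the nearest were Sobp (0.980) and Jag2 (0.974), for Pdpn Fstl1 (0.971) and Bmp7 (0.969), for Il17b Acta2 and Irx4 (0.966 each), for Id4 Irx4 (0.965) and Pdpn (0.964), and for Cdh3 Trp63 (0.969) and Col14a1 (0.964). Itga6 had no close match, its nearest being Ext1 (0.861) and Adamts9 (0.843). The sums share libraries and fall into basal and luminal clusters, and the values are a description. Within the 17 basal sums alone, Trp63 correlated with Cdh3 at 0.709, with Snai2 at 0.666, with Il17b at 0.710 and with Pdpn at 0.115. There Id4 was at 0.403 and Itga6 at 0.377, and Tgfb1i1 (0.816) and Rnase4 (0.749) were closer to Trp63 than Cdh3 was. Pltp was at 0.623.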

How the data were processed

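The deposited raw UMI counts per gene and cell barcode, made by the authors with Cell Ranger 3.1.0 against mm10 (per the submitters' processing notes; the headers of the count matrices give 3.0.2 and 3.1.0), were read for 17 mammary libraries. The skin library, the 18th sample, was left out. The study's limits on cells, which its supplement gives for each library, were applied: over 500 genes, fewer than 2250 to 7000 genes, fewer than 7000 to 55000 UMIs and under 15% to 25% mitochondrial UMIs. This kept 48.6% of the barcodes in lactation F11, 68.9% in D6 and at least 86.2% in each other library.

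Each library was clustered alone in Seurat 5.3.0 on 2000 variable genes and 20 principal components, with the members and the listed genes left out. This departs from the joint integration of the study. The resolution was 0.1, and 0.3 for E18.5, postnatal day 5 and lactation, a choice made after seeing that a library of these groups lacked a basal, LP/alveolar or ML cluster. A cluster was named from 3 or more raised markers (2-fold, 5% of cells), and others stayed unnamed. Doublets were kept, and leaving out the 5% of cells with the highest Scrublet score in each library was an alternative.

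Counts were summed per library and class. Basal to luminal ratios have exact conditional binomial intervals, and genes with 20 or more counts were measured. Shares came from cells thinned without replacement, with exact Clopper-Pearson intervals. These ratios and shares are descriptions, since the classes were made from the same cells. The 9 FVB/NJ libraries were fitted in edgeR 4.0.16 (filterByExpr, TMM, glmQLFit, glmQLFTest; Benjamini-Hochberg adjusted p under 0.05 over all genes), with DESeq2 1.42.0 as an alternative. The scripts were tested on simulated data. The alternatives tried were scaling, the low-count filter, milk genes removed, a gene minimum per cell, a keratin gate, other luminal partners, other ratio limits, other thinning, each library left out and, chosen after seeing the data, a D6 cluster with all basal markers raised counted as basal.

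The members and 65 further genes in 9 lists were chosen with earlier results of these data known. Listed genes were named where they passed a test, with up to 4 others of the highest adult FVB/NJ basal CPM, and 5 genes most like Trp63 and 2 for each other member were named among genes with a mean of 10 CPM or more. A listed gene is not reported here by name. Some libraries were prepared together: E18.5 mammary with skin, TEB with duct, pre-puberty with the C57BL/6 and SWISS adults, and FVB/NJ adult with post-involution.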

Additional observations from a re-analysis of the deposited data

Results flagged for a closer look

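In the gap between basal and LP/alveolar cells, the interaction of class and stage against adult was tested with edgeR's quasi-likelihood fit (Benjamini-Hochberg adjusted p under 0.05), and members and listed genes that passed are given as log2 values, positive where the gap shifted toward basal cells. Over all 14232 genes tested, 8.97% passed at pregnancy day 12.5, 27.1% at day 18.5 and 8.58% in lactation. The calls named below are to be read beside these shares.

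At pregnancy day 12.5 the gap shifted toward basal cells for Cd44 by 3.51, Fgfr2 by 2.33, Cdkn1a by 2.04, Itga2 by 1.86, Itgb6 by 1.59, Itgav by 1.56, Sfn by 1.50, Lama3 by 1.29, Id2 by 1.14 and Cd9 by 0.80, and the value for Itgb4 was -1.61. At pregnancy day 18.5 it shifted toward basal cells for Cd44 by 4.69, Itga2 by 3.77, Il17rb by 3.21, Itgb8 by 2.92, Itgb6 by 2.10, Cdkn1a by 2.01, Fgfr2 by 1.95, Sfn by 1.89, Tcf4 by 1.62, Id2 by 1.33, Perp by 1.32, Lama3 by 1.18, Vim by 1.14, Cd9 by 0.97, Il17rc by 0.85, Plec by 0.84 and Trp53 by 0.83. At that stage the value was -1.70 for Itga6, -1.84 for Ppp1r13l, -1.80 for Lamb3, -1.20 for Itgb4 and -0.93 for Ezr. Snai3 passed there too, with a fitted -4.56 that is not a measured size, since its basal CPM was 2.64 in adult A10 and 0 in P7 and D12, and it was not tested without A10.

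In lactation it shifted toward basal cells for Cd44 by 3.95, Lama3 by 2.82, Itgb8 by 2.69, Trp63 by 2.28, Col17a1 by 2.22, Sfn by 2.18, Cdkn1a by 1.71, Vim by 1.50 and Cd9 by 1.05, and the value was -1.36 for Itga6, -2.62 for Igfbp3 and -0.96 for Ezr. Snai2 passed there too, with a fitted 3.67 that is not a measured size, since its LP/alveolar counts were 2 and 0. Milk transcripts took 55.5% of LP/alveolar UMIs in lactation F11, 68.9% in D6 and at most 4.36% in the adults. With the milk genes removed, of the calls above only those of Ezr in lactation and of Perp, Vim and Il17rc at day 18.5 were lost. Without TMM scaling, calls over all genes turned from 760 higher and 517 lower to 617 and 193 at day 12.5. They turned from 1902 and 1948 to 4817 and 430 at day 18.5, and from 598 and 623 to 1825 and 117 in lactation. Both Itga6 calls were lost without it, and the values listed here are those with TMM scaling.

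Leaving out each of the 9 libraries in turn, the day 12.5 calls of Cd44 and Cdkn1a held throughout, that of Cd9 was lost in 5 fits (without H, G or any of the adults), and the others were lost without H or without G. At day 18.5 the call of Itgb4 was lost in 7 fits (holding without A10 or P7), Il17rc in 5, Vim and Plec in 4 each, Perp and Ezr in 3 each and Snai3 in 2 (without F4 or B4). The call of Trp53 was lost without B4 and that of Cd9 without F4. In lactation the call of Ezr was lost in 7 fits (holding without F4 or B4), Vim in 6, Igfbp3 without A10 or F11, Trp63 and Snai2 without A10 or D6, Itga6 without F11, and Sfn, Cd9 and Col17a1 without D6. The other calls named held in each of these fits. With the hemoglobin-led cluster of lactation D6 counted as basal, the calls of Cd9 and Itgb4 at day 12.5, of Itgb4, Il17rc, Perp, Plec and Vim at day 18.5, and of Trp63, Igfbp3, Col17a1, Cd9 and Vim in lactation were lost.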

How the results depend on the processing

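Over the values of single genes, other settings gave 639 values, of which 527 kept their direction and side of the threshold, and 719 values with one library left out, of which 593 did. Of basal genes changed at pregnancy day 12.5, 18.5 and lactation day 10 (156, 452 and 542), DESeq2 called 568, 853 and 1036, and no low-count filter 1099, 1264 and 1288. With the hemoglobin-led cluster of D6 counted as basal, 43 and 287 were called at day 12.5 and 18.5. The keratin gate called 283 at day 18.5 and 177 in lactation, where no TMM scaling called 2459 and cells with 1000 or more genes 311. Leaving out 1 library gave 1 (without H) to 852 (without A10), 77 (without F4) to 1142 (without P7), and 135 (without F11) to 1002 (without P7). At day 12.5 the count was 552 without P7, 55 without F11 or D12, 54 without D6, 23 without B4, 22 without F4 and 5 without G. At day 18.5 it was 792 without A10, 300 without D6, 295 without F11, 185 without G, 182 without H and 90 without B4, and in lactation 244 without D6. Of changed gaps at day 12.5 (1277), no TMM scaling called 810, no filter 2020, all luminal cells 2171 and the keratin gate 1978, with 248 (without H) to 1404 when 1 library was left out and 273 without G. Of 3850 at day 18.5, 1824 (without B4) to 3996 were called. Of 1221 in lactation, no TMM scaling called 1942, no filter 1978 and the gate 765, with 245 (without D6) to 1217, and 773 without A10. Member calls numbered 6 of 42, 11 with no filter, 2 with the gate, and 2 (without D6) to 10 (without P7).

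At E18.5, 3 members were basal-restricted with a limit of 2 or against ML cells alone, 2 with the keratin cluster added, and 0 with a limit of 8 or the gate. Some differences near 0 turned. Pdpn at day 18.5 was 0.00079 and became -0.028 in DESeq2, -0.019 without TMM, -0.016 without milk genes, -0.0038 without high Scrublet scores, -0.0039 with the gate, -0.011 with that cluster of D6 added, -0.047 without A10, -0.18 without D12 and -0.17 without B4, the highest value being 0.26 without P7. In basal cells Id4 at day 12.5 became -0.17 without P7, and was at most 0.59, without D12. Lactation values became -0.25 without TMM and -0.069 without D6 for Itga6 (up to 1.17 without A10), -0.10 without TMM for Trp63, and 0.35 without A10 for Il17b (as low as -0.77 without F11). The gap of Trp53 at day 18.5 became -0.049 with the gate. The cause was not tested. No paired analysis was possible because the groups share no replicate numbers. Counts of 16 to 38 for Pdpn and Id4 in lactation, and of 0 to 6 for Trp63 and Snai2 in LP/alveolar cells there, limit these comparisons.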
